A study of Drosophila melanogaster with 9 samples.

Results

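The 9 chorion protein genes Cp15, Cp16, Cp18, Cp19, Cp36, Cp38, Cp7Fa, Cp7Fb and Cp7Fc were followed through an RNA immunoprecipitation from Drosophila melanogaster ovaries. They were taken from the count tables by FlyBase gene ID through Ensembl's BDGP6 annotation, and they are 9 of 17024 features. The ovaries came from flies carrying aramis::GFP::FLAG, and this genotype was shared by all groups, so no library came from untagged ovaries. They were dissected 1 to 3 days after eclosion, and poly(A) RNA was sequenced with a directional kit. The Input group was the 10% of lysate that was set aside, the IgG group was pulled down with mouse control IgG, and the IP group was pulled down with an antibody against FLAG. Each group had 3 libraries, numbered 1 to 3 in the titles. Titles and genotype give aramis as the tagged gene, but the design text gives Larp, and the titles were followed. The promoter driving the tagged protein, the number of flies in a sample and whether the replicates were separate cultures or dissections were not given in the sources used here. The p-values below therefore measure only the spread between these libraries, which may be technical.

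The chorion is the outer eggshell, which follicle cells secrete around the oocyte in the last stages of egg chamber development. Its structural proteins are made in a short burst, and the follicle cells prepare for it by replicating a cluster of chorion genes on the X chromosome and another on chromosome arm 3L many times over. The genes of the clusters are then switched on in turn, with Cp36 and Cp38 early, Cp16 and Cp19 in between, and Cp15 and Cp18 late in eggshell formation. Germline cells do not make chorion proteins, so in a whole ovary these transcripts come from somatic cells of late egg chambers.

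All 9 genes lie on the plus strand of the fly genome (build dm6). The 3L cluster spans chr3L:8726791-8732599 and holds, in order, Cp18 (FBgn0000357), Cp15 (FBgn0000355), Cp19 (FBgn0000358) and Cp16 (FBgn0000356). Their exons cover 649, 515, 651 and 522 bases. The X cluster spans chrX:8470888-8483311 and holds Cp7Fa (FBgn0014464), Cp7Fb (FBgn0014465), Cp7Fc (FBgn0014466), Cp36 (FBgn0000359) and Cp38 (FBgn0000360). Their exons cover 1183, 2093, 1132, 1116 and 1249 bases. All 5 genes of the X cluster lie inside the span of CG33223, a gene on the opposite strand that shares no exonic base with them and had 3.01 ± 0.606 CPM (counts scaled to library size) in Input. The transcripts of the 3L cluster are short. Only 5.53% of the 8574 tested genes with an annotated exon length had exons covering at most 651 bases. The median over those tested genes was 2093 bases, which Cp7Fb equalled, and the other genes of the X cluster lay between these lengths. The exonic GC content of the 9 chorion genes ran from 50.1% to 60.4%, against a median of 48.9% over the same tested genes.

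The sequence upstream of the genes is shown because the 9 genes share a tissue and a stage, and because a short element, TCACGT, is known from insect chorion promoters. Each line gives the 100 bases before the annotated gene start and the first 10 bases of the gene, 5′ to 3′, read from the dm6 genome. Capitals mark TCACGT and the TATA box letters TATAAA, both searched on both strands.
Cp18 chr3L:8726691-8726800: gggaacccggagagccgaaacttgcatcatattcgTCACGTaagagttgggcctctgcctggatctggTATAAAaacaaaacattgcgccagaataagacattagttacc
Cp15 chr3L:8728381-8728490: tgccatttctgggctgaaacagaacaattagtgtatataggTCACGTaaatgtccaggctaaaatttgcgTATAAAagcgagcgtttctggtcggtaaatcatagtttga
Cp19 chr3L:8729765-8729874: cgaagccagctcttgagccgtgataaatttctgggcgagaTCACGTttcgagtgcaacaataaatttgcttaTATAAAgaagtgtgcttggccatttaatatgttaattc
Cp16 chr3L:8731844-8731953: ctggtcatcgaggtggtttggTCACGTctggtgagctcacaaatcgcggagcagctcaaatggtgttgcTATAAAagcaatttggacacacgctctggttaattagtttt
Cp7Fa chrX:8470788-8470897: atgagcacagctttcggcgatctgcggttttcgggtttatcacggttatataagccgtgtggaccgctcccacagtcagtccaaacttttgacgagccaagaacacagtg
Cp7Fb chrX:8473737-8473846: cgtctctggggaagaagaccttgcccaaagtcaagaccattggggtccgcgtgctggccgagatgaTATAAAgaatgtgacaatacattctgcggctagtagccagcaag
Cp7Fc chrX:8477017-8477126: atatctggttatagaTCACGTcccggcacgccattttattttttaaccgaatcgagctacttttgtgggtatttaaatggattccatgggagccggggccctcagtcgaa
Cp36 chrX:8479219-8479328: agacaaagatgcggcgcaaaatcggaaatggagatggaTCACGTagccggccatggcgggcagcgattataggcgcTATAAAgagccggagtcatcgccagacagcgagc
Cp38 chrX:8481737-8481846: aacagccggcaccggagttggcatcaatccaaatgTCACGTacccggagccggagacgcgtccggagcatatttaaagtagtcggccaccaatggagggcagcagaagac

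TCACGT was found in 7 of the 9 windows, against 317 of 13945 windows of the same length upstream of protein-coding genes (2.27%). All 7 matches were on the forward strand. Counted from the base before the gene start as −1, the match began at −59 in Cp15, −60 in Cp19, −62 in Cp36, −65 in Cp18 and Cp38, −79 in Cp16 and −85 in Cp7Fc. Cp7Fa and Cp7Fb were the genes with no match. TATAAA was found in 6 of the 9 windows, beginning between −34 and −24, against 2895 of all windows (20.8%). Cp7Fa, Cp7Fc and Cp38 had no such match. Both motifs stood in 5 of the 9 windows, those of the 4 genes on 3L and of Cp36, against 84 of all windows (0.602%). These are matches of letters, and binding was not measured here.

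**Figure D1:**
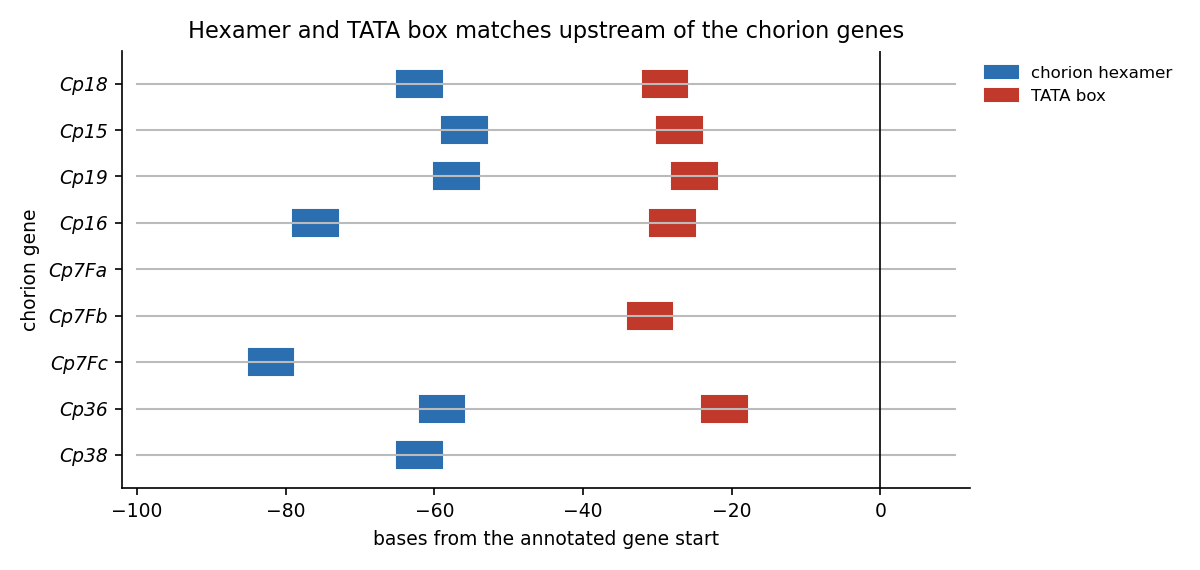
Positions of the chorion hexamer (TCACGT, blue) and the TATA box (TATAAA, red) in the windows of the 9 chorion genes; the x axis gives bases from the annotated gene start (vertical line) and each grey line is a window. The hexamer lies 59 to 85 bases upstream in 7 genes, and the TATA box begins 24 to 34 bases upstream in 6.

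Depth did not limit the chorion counts. Total counts ran from 30533376 to 47080956 per library, and every chorion gene had between 7956 and 389848 counts in each. All 9 genes passed the filter on low counts, as did 8789 genes in all, which were the genes tested. One feature with a malformed ID, FBgn000003, took 5.89% to 14.6% of the IgG counts but at most 1.04% in the other libraries. Levels are given as CPM scaled by TMM factors, which correct for differences in library composition, and as TPM, which also divides by exon length, where genes are compared with each other.

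Chorion transcripts were abundant in all 3 groups. Together the 9 genes held 1.680, 1.679 and 2.283% of the counts of the Input libraries, in the order of replicates 1, 2 and 3. They held 1.809, 2.0002 and 2.873% in IgG and 1.322, 1.405 and 1.763% in IP. Counting error was far smaller than these differences, since the half-width of the Wilson 95% confidence interval was at most 0.00497 percentage points, which covers counting error only because PCR copies are not independent molecules. In each group 5 of the 9 genes, Cp15, Cp18, Cp19, Cp36 and Cp38, were among the 100 features with the highest mean CPM. In bulk samples, fewer late egg chambers and less chorion RNA per cell cannot be told apart.

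Per exon length, Cp15 was the highest chorion transcript in Input, at 19783 ± 3356 TPM (SD, n = 3, as for all values with ± below). Cp38 followed at 7852 ± 1564 TPM, and the ranges of these genes did not overlap. Cp18, Cp19 and Cp36 came next, at 5883 ± 1119, 5721 ± 997 and 5434 ± 952 TPM. The ranges of Cp38, Cp18, Cp19 and Cp36 each overlapped with that of the next gene in this order, and Cp18 exceeded Cp19 in only 2 of 3 libraries. Cp16 (2120.4 ± 343 TPM) and Cp7Fc (1175 ± 41.9 TPM) each stood apart from their neighbours in the order. Cp7Fa (507 ± 145 TPM) and Cp7Fb (472 ± 36.6 TPM) were the lowest, and their ranges overlapped. The level of Cp7Fb per length depends on the annotation, since its transcripts are 775 and 2093 bases long and the longer one was used. The highest mean was 41.9-fold above the lowest in Input, 35.3-fold in IgG and 20.2-fold in IP. In IP, Cp15 remained first, at 10207 ± 1385 TPM, but its range overlapped with that of Cp38 (8191 ± 1705 TPM).

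**Figure D2:**
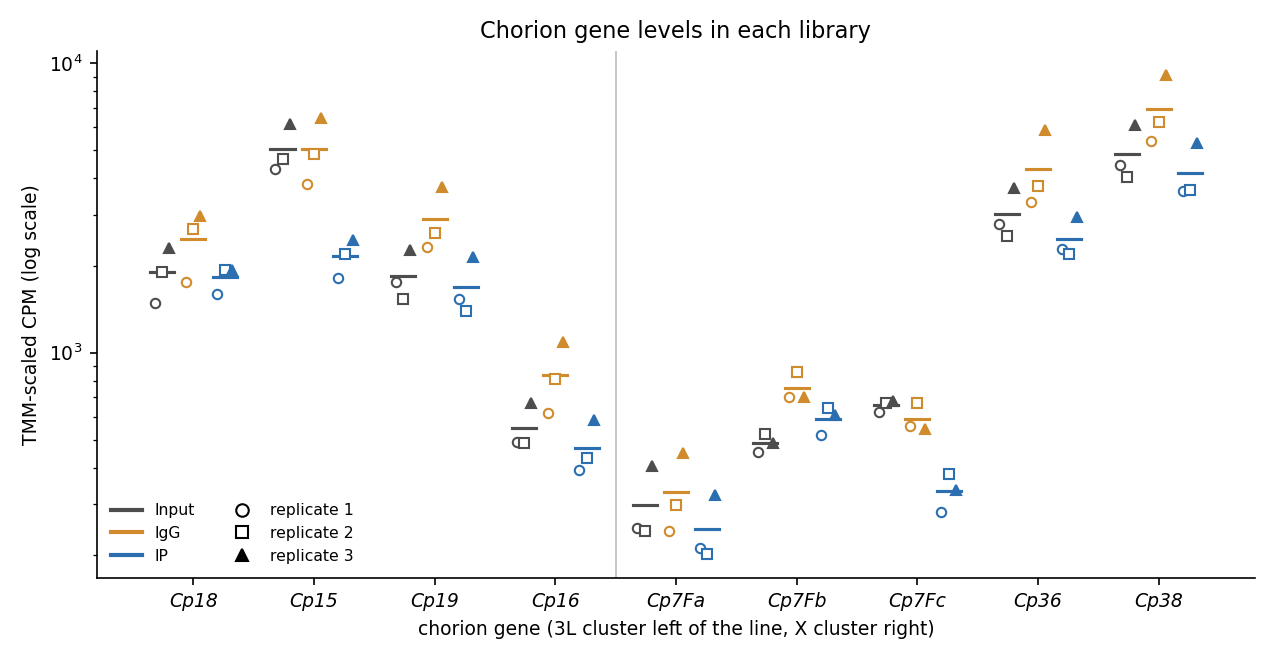
TMM-scaled CPM (log axis) of each chorion gene in the 9 libraries; colours give the groups, symbols the replicates, and short lines the group means. Cp15 and Cp7Fc are lower in all 3 IP libraries than in any Input library, and replicate 3 (filled triangles) is the highest Input library for every gene but Cp7Fb.

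The chorion genes varied more between replicates than other genes of like abundance, and mostly in the same library. In Input, Cp38 was at 4439, 4035 and 6116 CPM and Cp7Fa at 247, 241 and 406 CPM in replicates 1, 2 and 3. The third library was the high one for both. By contrast, Cp7Fb was at 453, 523 and 488 CPM and Cp7Fc at 624, 669 and 680.3 CPM, with little spread. The coefficient of variation over the Input replicates had a median of 20.1% over the 9 genes, against 5.14% over all genes tested and 3.09% over the 2399 with at least 100 CPM. It was lowest for Cp7Fc (4.56%, against a median of 3.32% over 446 other genes within 2-fold of its level) and highest for Cp7Fa (31.5%, against 3.06% over 1315 such genes). For all 9 genes in each group it was above the median of the genes within 2-fold of the gene's level. In IP the medians were 16.5% for the chorion genes, 10.2% for all genes tested and 5.68% for those with at least 100 CPM. In IgG they were 26.6%, 26.2% and 12.5%.

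Replicate 3 was the highest library for 8 of 9 chorion genes in Input, 7 of 9 in IgG and 7 of 9 in IP. Over all genes tested, it was the highest for 39.3%, 30.9% and 37.1%. The ratio of replicate 3 to the mean of replicates 1 and 2 had a median of 1.37 in Input, 1.52 in IgG and 1.31 in IP over the chorion genes, against 1.00, 0.978 and 0.999 over all genes tested. Cp7Fb and Cp7Fc were the exceptions in IgG and IP, with ratios between 0.885 and 1.05 over the 3 groups. Among other eggshell and follicle cell transcripts, some had high ratios in Input too and some did not. Femcoat, which encodes a chorion component, was at a ratio of 1.65. The yellow family genes yellow-g and yellow-g2, which are active in late follicle cells, were at 1.52 and 1.51. By contrast dec, the most abundant of these genes, was at 1.10. Of the vitelline membrane genes, which follicle cells express earlier, Vm26Aa was at 0.912 and Vm26Ab at 1.02, but Vm34Ca was at 1.18, Vm32E at 1.14 and Vm26Ac at 1.28. Vm26Ac and Vm32E had ratios of 1.58 and 1.66 in IgG and 1.20 and 1.26 in IP, within the range of the chorion genes. The yolk protein genes Yp1, Yp2 and Yp3 were at 1.01, 0.976 and 1.04 in Input. Muscle sheath markers moved the other way. The summed CPM of 7 such genes (Mhc, sls, bt, up, Mlc2, Tm2 and Act57B) was 416, 343 and 217 in Input replicates 1, 2 and 3, with replicate 3 the lowest in IgG (551 to 2909) and in IP (143 to 957) as well. The summed CPM of 3 fat body genes (Lsp2, Fbp1 and apolpp), nearly all of it apolpp, was highest in replicate 3 of each group. The sum was 10.6, 19.1 and 24.2 for the Input libraries. For IgG it was 18.8, 36.2 and 109, and for IP it was 32.1, 52.3 and 72.6. The part of muscle and fat body in the chorion values was not tested.

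**Figure D3:**
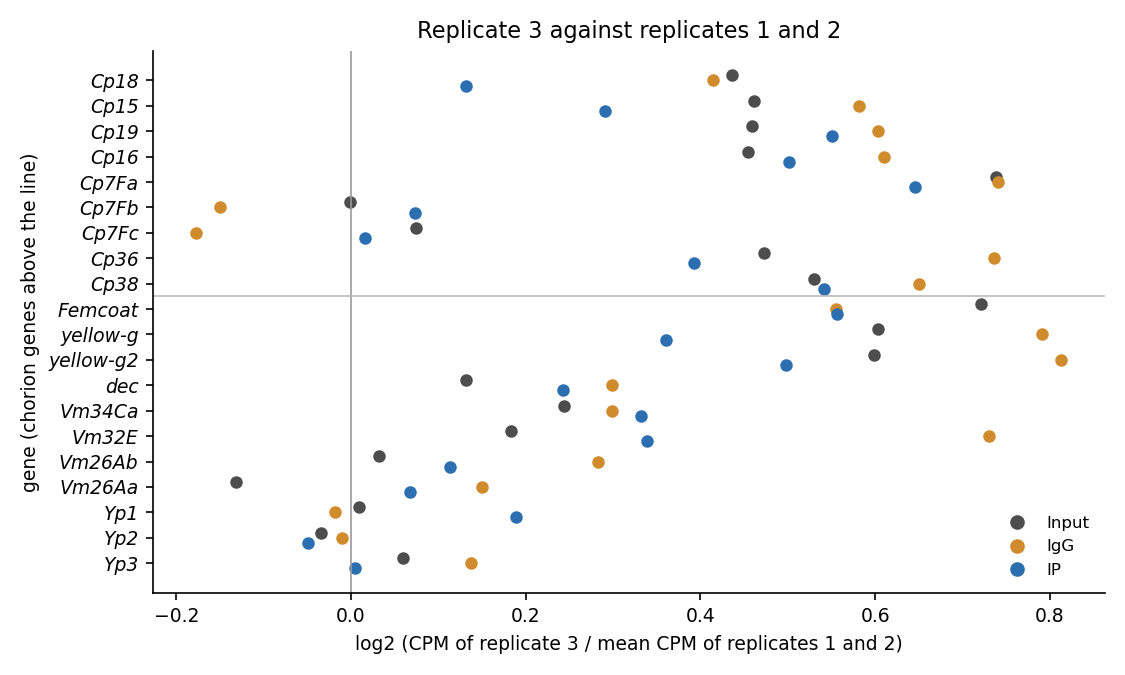
Log2 ratio of replicate 3 to the mean of replicates 1 and 2 (x axis, TMM-scaled CPM) for the 9 chorion genes (above the line) and other follicle cell genes (below), with 1 point per group. In Input, 7 chorion genes, Femcoat, yellow-g and yellow-g2 lie well right of 0, whereas Cp7Fb, Cp7Fc and the Yp genes lie near 0.

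The first comparison asks which transcripts were recovered with the tagged protein relative to the lysate. Cp15, which encodes a late chorion protein, was at 4297, 4675 and 6177 CPM in Input and at 1806, 2194 and 2446 CPM in IP. Every IP library was below every Input library, and the mean fell from 5049.7 ± 995 to 2149 ± 323 CPM. Its log2 fold change of IP over Input was −1.24 (SE 0.16), or 2.36-fold lower (adjusted p = 0.000169, edgeR quasi-likelihood test with Benjamini-Hochberg adjustment over all genes tested, as for all adjusted p below). Cp7Fc of the X cluster was at 624, 669 and 680.3 CPM in Input and 282, 381 and 335 CPM in IP, again without overlap. It was 1.98-fold lower in IP (log2 −0.99, SE 0.098, edgeR adjusted p = 1.59e-05). Its neighbour Cp7Fb moved the other way, from 453, 523 and 488 CPM in Input to 518, 644 and 611 CPM in IP, and the ranges overlapped. It was 1.21-fold higher in IP (log2 0.27, SE 0.086, edgeR adjusted p = 0.0208). This call was lost without Input replicate 1 (log2 0.23, adjusted p = 0.0762), without Input replicate 3 (0.27, 0.0528) and without IP replicate 2 (0.20, 0.101), and also with all 9 libraries in one fit (0.28, 0.0791), in edgeR.

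The other 6 genes had log2 fold changes of IP over Input between −0.29 (Cp36, SE 0.16) and −0.058 (Cp18, SE 0.15), and none passed edgeR's test in this fit. The median over the 9 genes was −0.23, against 0.0058 over all genes tested. It was −0.021 without Input replicate 3, −0.12 without IP replicate 1, −0.43 without IP replicate 3 and −0.48 with a correction for GC content. Calls were common in this comparison, with 30.8% of all genes tested called lower and 28.5% called higher, so 2 lower and 1 higher of 9 is not more than the background.

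Input and IP libraries of the same number deviated from their group means together, so they were treated as pairs and fitted again with the replicate number as a block. In that fit 7 of 9 chorion genes were called lower and 1 was called higher, where 32.7% of all genes tested were called lower and 30.0% higher. Besides Cp15 and Cp7Fc, the lower genes were the early chorion genes Cp36, at −0.28 (SE 0.058, adjusted p = 0.000882), and Cp38, at −0.22 (SE 0.060, adjusted p = 0.00604), with edgeR. The lower genes also included Cp7Fa, at −0.28 (SE 0.049, adjusted p = 0.000302), Cp16, at −0.24 (SE 0.054, adjusted p = 0.00188), and Cp19, at −0.14 (SE 0.056, adjusted p = 0.0445), with edgeR. Each of these 7 genes was lower in IP than in Input in all 3 same-numbered pairs. For Cp36 the log2 ratios of the pairs were −0.29, −0.21 and −0.33, and for Cp7Fa they were −0.22, −0.26 and −0.33, although the unpaired ranges of both genes overlapped. Cp7Fb was higher in all 3 pairs, at 0.27 (SE 0.053, adjusted p = 0.000643) in edgeR. Cp18 was not called, with pair ratios of 0.10, 0.026 and −0.24 and a blocked value of −0.042 (SE 0.069, adjusted p = 0.623) in edgeR. Apart from Cp15, Cp7Fc and Cp7Fb, the blocked values of the chorion genes lay between −0.28 and −0.042 on the log2 scale. With a correction for GC content added to the block, the same 6 genes lay between −0.61 (Cp38) and −0.34 (Cp18, edgeR adjusted p = 0.000734). All 6 were called lower, where 33.1% of all genes tested were. With a correction for exon length added to the block instead, 5 chorion genes were called lower, where 32.0% of all genes tested were. Cp38 (log2 −0.13, adjusted p = 0.0750) and Cp19 (−0.047, 0.483) were then not called in edgeR, and Cp18 was at 0.052 (0.522). Without replicate 3 in both groups, an alternative chosen after seeing the data, the unblocked fit called 6 genes lower (Cp15, Cp16, Cp7Fa, Cp7Fc, Cp36 and Cp38), where it called 29.6% of all genes tested lower, and did not call Cp7Fb.

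**Figure D4:**
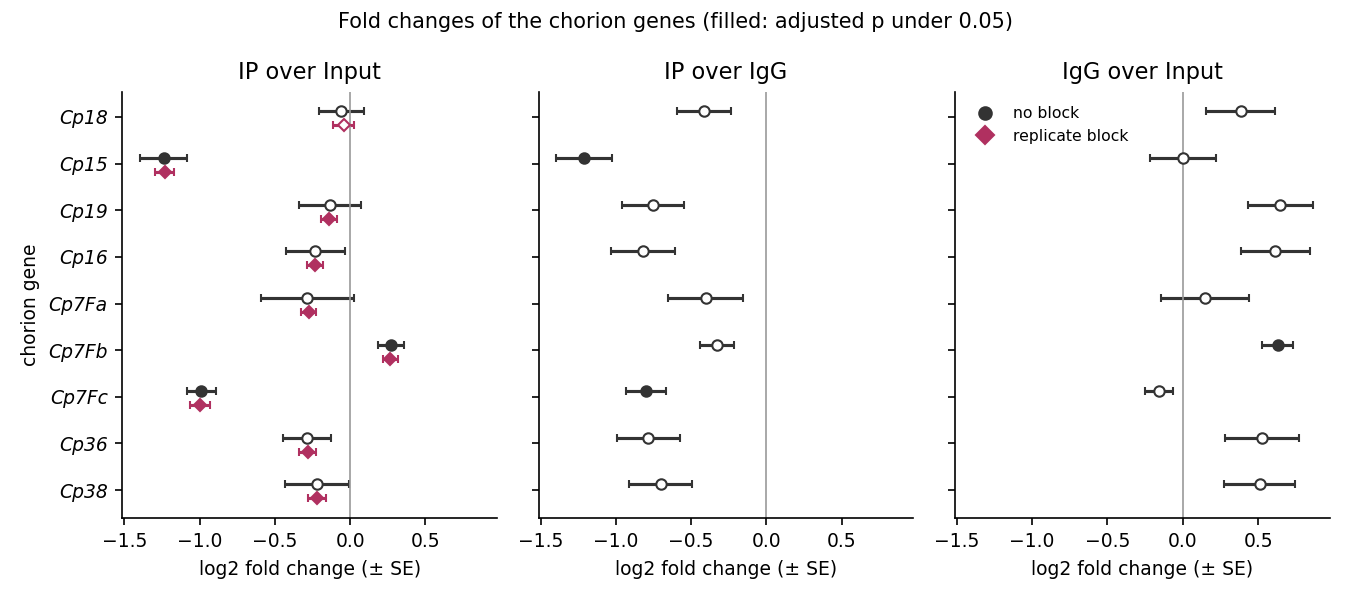
Log2 fold changes of the 9 chorion genes (x axis, ± SE of the edgeR fit) for IP over Input, IP over IgG and IgG over Input; filled symbols have an adjusted p under 0.05, and pink diamonds give the fit with the replicate number as a block, shown for IP over Input. Cp15 and Cp7Fc are lower in IP against both other groups, and the blocked SE is smaller than the unblocked one for all 9 genes.

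IP was next set against IgG, which asks what the FLAG antibody recovered beyond the control antibody. None of the 9 chorion genes was called higher in IP, where 4.77% of all genes tested were, and 2 were called lower, where 3.20% of all genes tested were. Cp15 was at 3825, 4860.2 and 6495 CPM in IgG, above all its IP values, and its log2 fold change of IP over IgG was −1.21 (SE 0.19, edgeR adjusted p = 0.00578). Cp7Fc was at 555, 671 and 542 CPM in IgG, also above all its IP values, and the fold change was −0.80 on the log2 scale (SE 0.13, edgeR adjusted p = 0.00736). The other 7 genes had log2 values from −0.82 (Cp16) to −0.33 (Cp7Fb) and did not pass in this fit, which had no block. For Cp16 the IgG libraries were at 618, 811 and 1091 CPM and the IP libraries at 391, 432 and 583 CPM, which did not overlap (edgeR adjusted p = 0.0542). For 7 of 9 genes, all but Cp18 and Cp7Fa, every IP value was below every IgG value, which held for 13.0% of all genes tested. The median over the 9 genes was −0.75, against 0.027 over all genes tested, and 8 of 9 had an unadjusted p under 0.05, as did 2402 of the 8789 genes tested. Without IgG replicate 3 the median was −0.49. IgG libraries varied widely, with a biological coefficient of variation of 0.596 in this fit against 0.150 for IP and Input. With the replicate number as a block, all 9 genes were called lower in IP than in IgG, where 5.39% of all genes tested were. Pairs were not assumed for these libraries, so that fit is an alternative.

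Single libraries moved the calls of IP over IgG. Without IgG replicate 1, the chorion genes called lower were 5, where 4.60% of all genes tested were, with Cp16 (log2 −1.02, adjusted p = 0.0321), Cp18 (−0.63, 0.0225) and Cp36 (−0.97, 0.0429) added in edgeR. Without IP replicate 3, Cp19 was added (−0.95, 0.0391). DESeq2 called 7 of the 9 lower, where it called 7.24% of the 8537 genes to which it gave an adjusted p. Without replicate 3 in both groups, Cp7Fc was no longer called (−0.85, edgeR adjusted p = 0.0986), whereas Cp15 was (−1.08, 0.0462).

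IgG against Input measures what the control pulldown recovers, and it shares its libraries with both comparisons above. Cp7Fb was called higher in IgG, at 705, 857 and 704 CPM against 453, 523 and 488 CPM in Input, without overlap. IgG exceeded Input by 0.63 on the log2 scale (SE 0.10, edgeR adjusted p = 0.0102). This was 1 of 9 called higher, where 10.3% of all genes tested were, and none was called lower, where 16.6% were. Of the 9 genes, 8 lay above 0 and the median was 0.51, against −0.0096 over all genes tested, and 3 of 9 had an unadjusted p under 0.05, as did 37.8% of all genes tested. The median was 0.23 without IgG replicate 3 and 0.16 with a correction for GC content. The chorion genes with the lowest values were Cp15, at 0.0038 (SE 0.22), and Cp7Fc, at −0.16 (SE 0.095). The call of Cp7Fb was lost without Input replicate 1 (edgeR adjusted p = 0.0547) and without Input replicate 3 (0.0546). Without IgG replicate 1, Cp16 was called higher as well (0.79, 0.0351), and without IgG replicate 2, Cp7Fc was called lower (−0.26, 0.0263).

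As a mean over libraries, the 9 genes took 1.88 ± 0.349% of the Input counts, 2.23 ± 0.567% of the IgG counts and 1.497 ± 0.235% of the IP counts. The difference of IP minus Input was −0.384 percentage points, with overlapping ranges (exact permutation test, two-sided, p = 0.3). The difference of IP minus IgG was −0.731 points, without overlap (exact permutation test, p = 0.1), and IgG exceeded Input by 0.347 points (exact permutation test, p = 0.5). With 3 libraries against 3, the smallest p such a test allows is 0.1. Within same-numbered pairs the IP share was below the Input share in 3 of 3, with differences of −0.358, −0.274 and −0.520 points (exact sign-flip permutation, p = 0.25, the smallest that 3 pairs allow). Single libraries moved these differences. IP minus Input was −0.183 points without Input replicate 3, IP minus IgG was −0.408 points without IgG replicate 3, and IgG minus Input was 0.0240 points without IgG replicate 3, 0.556 points without IgG replicate 1 and 0.548 points without Input replicate 3.

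The makeup of the chorion counts was compared as well, since a share within a library does not depend on how libraries are scaled. Cp15 made up 25.9, 28.2 and 27.1% of the chorion counts in Input, 20.4, 21.3 and 21.0% in IgG and 14.8, 16.8 and 14.7% in IP. No range overlapped with another, and each of the 3 differences had p = 0.1 (exact permutation test, the smallest possible, over 3 comparisons of this share). Cp7Fc held 3.59 ± 0.542% of the chorion counts in Input against 2.55 ± 0.696% in IgG and 2.42 ± 0.461% in IP, with both pulldown groups below every Input library. Cp7Fb held 2.67 ± 0.507%, 3.26 ± 0.861% and 4.28 ± 0.633%. Its IP range lay above its Input range. Shares of the chorion counts sum to the whole, so a share can change without a change in the gene's own level. The mean level of Cp15 did not fall from Input (5049.7 CPM) to IgG (5060.1 CPM), although its share was lower in IgG. Cp18, which is late like Cp15, held 10.2 ± 1.24% in Input and 13.2 ± 1.60% in IP, without overlap, although its own level did not rise (1892 CPM in Input and 1822 CPM in IP). Cp16 was the steadiest gene in Input, at 2.94 ± 0.0150%.

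**Figure D5:**
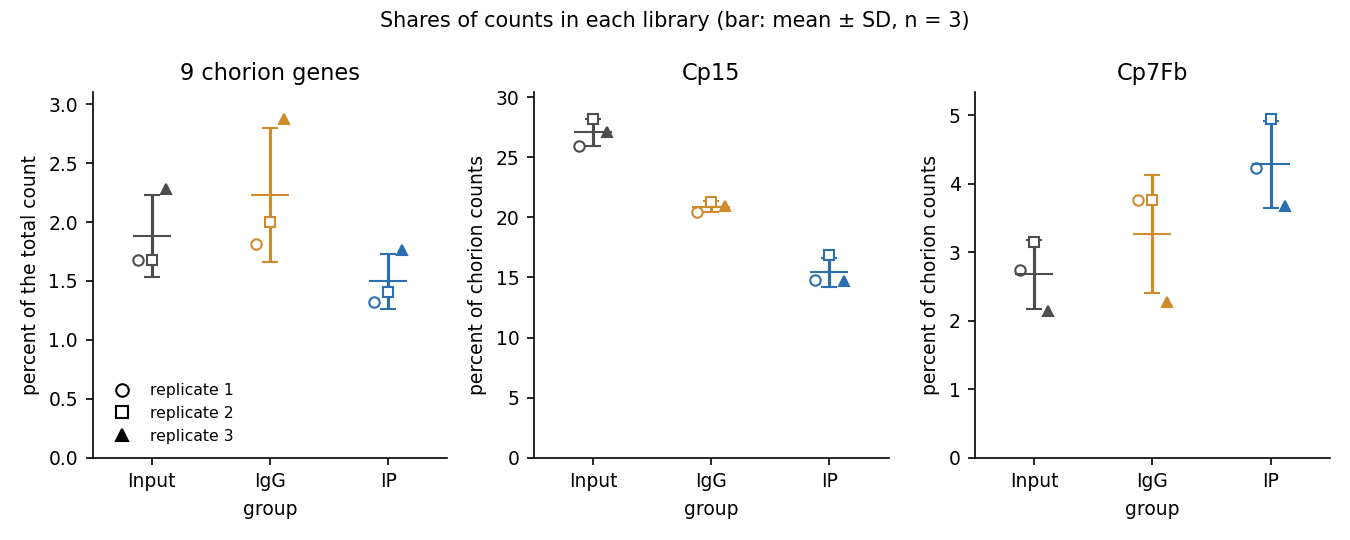
Percent of the total count held by the 9 chorion genes (left), and percent of the chorion counts held by Cp15 (middle) and Cp7Fb (right), for each library; symbols give the replicates, and bars the mean ± SD of 3. The Cp15 share is 25.9–28.2% in Input, 20.4–21.3% in IgG and 14.7–16.8% in IP without overlap, whereas the chorion share of IP overlaps with that of Input.

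The clusters were compared within each library by the log2 ratio of the summed counts of the 4 genes on 3L to those of the 5 genes on X. It was 0.0039 ± 0.098 in Input, −0.20 ± 0.076 in IgG and −0.35 ± 0.088 in IP. IP minus Input was −0.35 without overlap (exact permutation test, p = 0.1), IgG minus Input was −0.20 without overlap (exact permutation test, p = 0.1), and IP minus IgG was −0.15 (exact permutation test, p = 0.2). These differences rested on Cp15. With Cp15 left out, they were 0.15, 0.060 and 0.088, above 0, for IP minus Input, IgG minus Input and IP minus IgG (exact permutation test, p = 0.1, 0.4 and 0.3). A change of one whole cluster against the other was therefore not shown.

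Other eggshell genes were compared from a list of 18, of which 17 were tested. Between IP and Input, 6 were called higher and 6 lower, near the shares over all genes tested (28.5% higher and 30.8% lower). The vitelline membrane genes Vm26Aa and Vm26Ab, whose products form the inner eggshell layer, were higher in IP, with log2 fold changes of 0.91 (SE 0.067, adjusted p = 2.30e-06) and 1.49 (SE 0.11, adjusted p = 2.35e-06) in edgeR. dec (dec-1), whose secreted products are needed to assemble the chorion, was higher at 0.28 (SE 0.086, adjusted p = 0.0183), from 2597 ± 197 to 3162 ± 321 CPM. Vm26Ac, of the same family as Vm26Aa and Vm26Ab, was lower at −0.92 (SE 0.13, adjusted p = 0.000134). Vml, a vitelline membrane-like gene, was lower at −0.41 (SE 0.096, adjusted p = 0.00429), and Pxt, a peroxidase family gene of the ovary, was lower at −0.23 (SE 0.060, adjusted p = 0.00768). Vm34Ca did not pass, at 0.15 (SE 0.16, adjusted p = 0.447). Against IgG, 1 was called higher and 1 lower (4.77% and 3.20% of all genes tested). These were ndl, a protease gene needed in the eggshell, and Mur11Da, a mucin-related gene, both named after their values were seen. Mur11Da was at 158 ± 29.0, 151 ± 34.5 and 59.1 ± 20.8 CPM in Input, IgG and IP, and was lower in IP than in IgG at −1.33 (SE 0.28, adjusted p = 0.0231) in edgeR. Between IgG and Input, 4 were higher and 1 lower (10.3% and 16.6% of all genes tested). Vm26Aa (log2 1.04, SE 0.089, adjusted p = 0.00178), Vm26Ab (log2 1.43, SE 0.13, adjusted p = 0.00206) and Vm34Ca (log2 0.80, SE 0.15, adjusted p = 0.0149) were among the higher. Vm26Aa and Vm26Ab thus rose in both pulldown groups relative to Input, and between IP and IgG they were at −0.097 (SE 0.080, adjusted p = 0.517) and 0.087 (SE 0.15, adjusted p = 0.791) in edgeR.

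Amplification of the chorion clusters needs the DNA replication machinery, so a list of 28 replication and amplification factors was read as well. Of these, 26 were in the files by current ID and 24 were tested. Between IP and Input 13 were called higher and 6 lower, where 28.5% and 30.8% of all genes tested were. Between IP and IgG 4 were called higher and none lower, where 4.77% and 3.20% of all genes tested were, among them Rbf, the retinoblastoma family repressor of E2F, at 0.44 (SE 0.082, adjusted p = 0.0148) in edgeR. CycE, the cyclin that drives endocycles and amplification, was at 428 ± 6.95 CPM in Input and 598 ± 28.9 CPM in IP (log2 0.48, SE 0.053, adjusted p = 3.57e-05). chif, the activator of Cdc7 kinase that gives the chiffon thin-eggshell phenotype, was at 259 ± 5.24 and 429 ± 23.8 CPM (log2 0.72, SE 0.054, adjusted p = 2.60e-06). The same direction held for dpa, a subunit of the MCM helicase, at 0.39 (SE 0.095, adjusted p = 0.00549), and dup, which loads that helicase, at 0.29 (SE 0.056, adjusted p = 0.00122). Dp, the partner of E2F, was lower at −0.43 (SE 0.048, adjusted p = 3.66e-05). Between IP and IgG, CycE, chif, dpa, dup and Dp were not called (edgeR adjusted p = 0.0782, 0.0681, 0.309, 0.0939 and 0.808). Between IgG and Input, 2 were higher and 3 lower (10.3% and 16.6% of all genes tested). These factors act in dividing and growing cells throughout the ovary, not in late follicle cells alone.

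Of 12 transcription regulators of chorion genes and late follicle cells, 11 were tested. Between IP and Input 4 were called higher and 4 lower (28.5% and 30.8% of all genes tested), between IP and IgG 1 was higher (4.77%), and between IgG and Input 2 were higher and 3 lower (10.3% and 16.6%). ttk, a zinc finger repressor, was higher in IP at 0.74 (SE 0.061, adjusted p = 4.66e-06), and Eip75B, an ecdysone-induced nuclear receptor, was higher at 0.90 (SE 0.12, adjusted p = 9.52e-05). EcR and usp, which together form the ecdysone receptor, were lower at −0.66 (SE 0.066, adjusted p = 1.58e-05) and −1.02 (SE 0.055, adjusted p = 3.29e-07) in edgeR. The control pulldown moved the same way for EcR, usp and ttk. IgG over Input was −0.65, −0.82 and 0.49 (edgeR adjusted p = 0.0251, 0.00445 and 0.0107). Between IP and IgG, EcR, usp, ttk and Eip75B were not called. The regulator called higher there was Eip74EF, at 0.69 (SE 0.17, adjusted p = 0.0467) in edgeR, which was named after its values were seen. Eip74EF was also higher than Input in IP (log2 2.27, edgeR adjusted p = 3.48e-07) and in IgG (1.61, 0.00617). Of 17 genes within 20 kb of the clusters, 12 were tested. Between IP and Input 2 of them were called higher and 1 lower (28.5% and 30.8% of all genes tested). None was called between IP and IgG, where 4.77% of all genes tested were called higher and 3.20% lower.

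The genes whose levels followed the mean log2 CPM of the 9 chorion genes most closely over the 9 libraries were CG13113 (Pearson r = 0.969), Femcoat (0.963), CG13083 (0.953), CG14464 (0.950) and CG15571 (0.947), out of 6342 other tested genes whose mean reached 10 CPM. The median r over those genes was −0.032. The points are 9 libraries in 3 groups that share scaling and replicate numbers, so r is a description. Femcoat was at 208 ± 63.9, 260.1 ± 68.5 and 165 ± 38.8 CPM in Input, IgG and IP. CG13083 was the most abundant of the 5, at 717 ± 205, 809 ± 228 and 505 ± 100.2 CPM. Among the chorion genes themselves, the correlation with the mean of the other 8 was highest for Cp16 (r = 0.972), Cp36 (0.955) and Cp38 (0.952). It was lowest for Cp7Fc (0.535) and Cp7Fb (0.392), the genes that also lacked the replicate 3 pattern.

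The labelled tissue was checked by marker genes. The summed CPM of 6 germline genes (osk, orb, grk, BicD, otu and bam) ran over 3277 to 3487 in the Input libraries, 3008 to 3324 in IgG and 3010.0 to 3617 in IP, and none of them was at 0 in any library. Mid-stage follicle cell genes (Vm26Aa, Vm26Ab, Vm32E, Vm34Ca, Yp1, Yp2 and Yp3) summed to 17267 to 17651, 29439.7 to 34867 and 26369 to 29938 CPM. Their sums were higher in both pulldown groups than in Input. The chorion share of the total count overlapped between Input and each pulldown group. Of the genes listed as late follicle cell markers, dec, Femcoat and yellow-g summed to 2869 to 3502, 2599.6 to 3612 and 3314 to 4057 CPM, most of it dec. For IP over Input, dec was at 0.28 on the log2 scale, whereas Femcoat and yellow-g were at −0.33 and −0.40 (edgeR adjusted p = 0.359 and 0.153). With the replicate block Femcoat and yellow-g were called lower, where 32.7% of all genes tested were. Other follicle cell genes (tj, Fas3, slbo and mirr) summed to 215 to 238, 299 to 333 and 374 to 431 CPM. Of 3 hemocyte genes, Hml and NimC1 were at 0 in IgG replicates 1 and 2, and the list summed to 4.62 to 22.0 CPM in Input, 33.5 to 361 in IgG and 15.4 to 108 in IP, nearly all of it Ppn. Of the fat body genes, Fbp1 was at 0 in all IgG and IP libraries, and nearly all of the sum given above was apolpp. The part of these cells in the chorion values was not tested.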

How the data were processed

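For each library, the authors deposited raw counts as whole numbers per FlyBase gene ID, without normalization. The submitters' processing notes name HISAT2 2.1.0, featureCounts 1.4.6 and build dm6, and the counting settings (annotation, strand, reads with several matches) were not given in the sources used here. How reads of overlapping genes were assigned is therefore unknown.

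Symbols, positions, exon lengths and GC content came from Ensembl's BDGP6 annotation (release 115), which named 16647 of 17024 IDs. Groups and replicate numbers came from the titles and the immunoprecipitation label. The deposited counts were fitted with edgeR 4.0.16 in R 4.3.3 (robust quasi-likelihood, two-sided, TMM scaling), using the 6 libraries of each comparison. Genes passing edgeR's filter over the 9 libraries (minimum count of 10) were tested, which left 8789 and set aside 8235. A gene was called at a Benjamini-Hochberg adjusted p under 0.05, over all genes tested. SE values were derived from the F statistic. The steps were tested on simulated data.

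TPM used the union of annotated exons. Motifs were searched in windows of 110 bases. Single values were compared by exact permutation tests over libraries (two-sided). Correlations of log2 CPM used a pseudocount of 0.5. The smallest level that 3 counts could show was 0.0637 to 0.0983 CPM.

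The fits had no block. The titles give the groups the same replicate numbers, so each library's departures from its group mean (log2 CPM) were correlated with those of the other group, across tested genes. Same-numbered IP and Input libraries had r of 0.273, 0.289 and 0.387, and differently numbered ones −0.231 to −0.016. All 3 exceeded 0.1, so these numbers were taken to pair the libraries, and the blocked fit is given beside the unblocked one.

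The alternatives were DESeq2 1.42.0, other scalings, filters and thresholds, all 9 libraries in one fit, corrections for exon length and GC content (loess, span 0.3), leaving out FBgn000003, each library in turn, and each member in the cluster ratio. Named were the 9 members, the 5 tested genes most correlated with them, and up to 6 genes a list that passed in any comparison, the most abundant first. Other genes, among them Vm26Ac, ndl, Mur11Da and Eip74EF, were named outside this rule. The members and lists were chosen with earlier results of these data known. Orc1, Mcm3, br and wupA of the lists were not matched to an ID in the files and are not analysed here.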

Additional observations from a re-analysis of the deposited data

How the results depend on the processing

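Over 540 alternative values of the 27 single-gene fold changes, 430 kept their direction and their side of the threshold, 79 became significant, 9 lost significance and 22 changed sign. Among these, Cp15 and Cp7Fc kept their calls for IP over Input throughout, and Cp15 did for IP over IgG, where Cp7Fc lost its call without replicate 3 in both groups. A minimum change of 2-fold, set on the counts below, would leave out Cp7Fc in both comparisons. For IP over Input, 3 chorion genes were called, where 59.2% of all genes tested were called in either direction. With the GC correction 5 were called (59.4% of all genes tested), and with the replicate block 8 (62.7%). The block gave 9 with the GC correction added (62.7%) and 6 with the length correction added (62.1%). Without replicate 3 in both groups 6 were called (56.9%), and at a change of at least 2-fold 1 was. The count was 2 to 4 when each library was left out.

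For IP over IgG, 2 were called, against 7 with DESeq2, 6 with all 9 libraries in one fit (where 791 of 8789 genes tested were lower), 5 with a mean of at least 50 counts (4.28% of the genes tested), 4 with upper-quartile factors (3.79%), 4 without replicate 3 in both groups (1.18%), 1 at 2-fold, and 2 to 5 when each library was left out. For IgG over Input, 1 was called, where 26.9% of all genes tested were called in either direction. DESeq2 called 3 (32.3% of the 8112 genes to which it gave an adjusted p), and the fit of all 9 libraries called 2 (34.2%). Library totals gave 1 higher and 1 lower (26.6% called in either direction). The count was 0 without replicate 3 in both groups (5.94%), 0 at an adjusted p under 0.01 and 0 at 2-fold. It was 0 to 2 when each library was left out. At an unadjusted p under 0.05, 3 genes passed there, as did 37.8% of all genes tested. The causes were not tested.

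Pairs were not assumed for the IP and IgG libraries, or for the IgG and Input libraries. Their same-numbered correlations were 0.0364 to 0.193 and 0.0904 to 0.187, and so did not all exceed 0.1. Every library correlated best with its own number between IgG and Input, which is a hint from the data, and IP replicate 1 correlated better with IgG replicate 2. With the replicate block, 9 genes were called for IP over IgG, all lower (5.39% of all genes tested were), 9 with the GC correction added (5.26%) and 7 with the length correction added (4.30%). For IgG over Input the block gave 6 higher (9.40% of all genes tested were). With the GC correction added it gave 4 higher and Cp15 lower (9.32% and 13.0% of all genes tested). With the length correction added it gave 5 higher and Cp15 lower (9.14% and 11.7%).

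The log2 fold change of Cp18 for IP over Input changed sign with library totals (0.036), the length correction (0.042), the block and the length correction (0.052), and without replicate 3 in both groups (0.055), and ranged from −0.20 to 0.10 when each library was left out. So did Cp19 (−0.34 to 0.037) and Cp7Fa (−0.54 to 0.0058). For IgG over Input, Cp15 changed sign with library totals (−0.13), at least 1 count (−0.0034), the block (−0.015), the length correction (−0.19), the block and length (−0.20), GC (−0.17), the block and GC (−0.19), and without replicate 3 in both groups (−0.057), with −0.22 to 0.17 when each library was left out. Cp7Fa did so with GC (−0.018), the block and GC (−0.020), and ranged from −0.15 to 0.43 when each library was left out. Without Cp15, the log2 ratio of the 3L to the X cluster turned to 0.15 for IP over Input, 0.088 for IP over IgG and 0.060 for IgG over Input. Library totals moved the median log2 value of all genes tested to 0.10, 0.22 and −0.14 for IP over Input, IP over IgG and IgG over Input. Depth did not limit these values.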
